A study of Homo sapiens with 6 samples.

Results

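This account follows the genes of glycolysis and glucose transport in NTERA2/D1 cells, an established human testicular teratocarcinoma line, after siRNA knockdown of VAMP7, a vesicle SNARE. The list held 34 genes, chosen as the glucose and lactate transporters, the enzymes of each glycolytic step and the kinases that control pyruvate dehydrogenase. Of these, 32 had at least 1 probe set that the platform annotation assigned to them alone, 71 probe sets in all among 54613 fitted, and 19775 genes were measured in the series as a whole. The lactate transporters SLC16A1 and SLC16A3 had no probe set assigned to them and are not analysed here. Cells were transfected 24 h after plating, for 72 h, with a nonspecific scrambled siRNA (control) or with siRNA against VAMP7 (knockdown), with 3 arrays in each group. Both groups were grown in the same serum medium without phenol red, both went through transfection, and there was no untransfected group. The sequence of neither siRNA is given in the labels. The labels call the replicates biological but do not say what was separate about them. The titles number the knockdown samples 1, 2 and 3, while their descriptions give all of them the number 1, and the titles were followed. Thus a p-value here reflects how far these 6 arrays differ, part of which may be technical.

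Glycolysis splits glucose into pyruvate in the cytosol. Several steps are encoded by more than 1 gene, and the isoforms differ in tissue, kinetics or regulation, for example muscle, liver, brain and red cell forms. Pluripotent and embryonal carcinoma cells are known for high glycolytic activity, with pyruvate turned to lactate by lactate dehydrogenase even where oxygen is present. Many of these genes are known targets of the hypoxia factor HIF and of MYC, which bind DNA at sites that share a short core.

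The promoter sequences of 2 isoform pairs are shown first because these are the pairs the isoform comparison returns to. LDHA was the 1 gene of 32 (3.12%) whose arrays did not overlap between groups on its highest probe set, a smaller share than the 13.0% of all genes, and LDHB is its partner. ENO2 to ENO1 was the 1 isoform ratio of 18 without overlap, with an adjusted p of 0.9 in the exact permutation test. Neither pair is shown as changed. Each is the stretch of 250 bases before an annotated start, from RefSeq on GRCh38.p14, 5′ to 3′ on the strand of the gene. Capitals mark ACGTG on either strand, a form of the core of HIF sites that the CACGTG box also contains. Other forms of the HIF core were not searched, so a window without capitals may still hold a HIF core. LDHA lies on the plus strand at chr11:18394313-18394562, LDHB on the minus strand at chr12:21657843-21658092, ENO1 on the minus strand at chr1:8878687-8878936 and ENO2 on the plus strand at chr12:6914330-6914579.
LDHA: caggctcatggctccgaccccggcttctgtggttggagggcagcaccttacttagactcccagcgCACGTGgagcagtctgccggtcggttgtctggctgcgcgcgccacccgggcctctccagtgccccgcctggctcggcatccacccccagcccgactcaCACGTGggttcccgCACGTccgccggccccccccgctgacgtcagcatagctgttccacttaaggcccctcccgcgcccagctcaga
LDHB: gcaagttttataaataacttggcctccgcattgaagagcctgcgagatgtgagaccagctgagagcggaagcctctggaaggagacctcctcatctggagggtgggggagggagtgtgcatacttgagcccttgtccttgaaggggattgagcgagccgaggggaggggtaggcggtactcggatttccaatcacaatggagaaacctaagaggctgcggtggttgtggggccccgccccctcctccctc
ENO1: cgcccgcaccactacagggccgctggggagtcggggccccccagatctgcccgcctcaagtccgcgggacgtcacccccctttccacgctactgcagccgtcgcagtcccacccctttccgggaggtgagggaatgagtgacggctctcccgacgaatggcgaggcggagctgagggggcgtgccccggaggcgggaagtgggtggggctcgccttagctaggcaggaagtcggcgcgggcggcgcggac
ENO2: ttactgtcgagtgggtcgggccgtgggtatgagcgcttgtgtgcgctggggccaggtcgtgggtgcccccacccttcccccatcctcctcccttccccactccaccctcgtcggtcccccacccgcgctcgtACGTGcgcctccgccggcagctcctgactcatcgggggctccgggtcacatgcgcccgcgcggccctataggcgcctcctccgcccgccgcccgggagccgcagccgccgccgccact
LDHA held ACGTG in 3 separate stretches of this window, ENO2 in 1, and LDHB and ENO1 in 0. The window of a second LDHA start held none. Promoter windows were listed for 30 of the 34 genes, and 21 of their 61 windows (34.4%) held ACGTG, against 6501 of 35116 windows of all genes (18.5%). The longer CACGTG was in 8 of the 61 windows (13.1%) and in 6.3% of all windows, and each CACGTG contains an ACGTG. A match of letters is a description of these windows only, and a gene with several annotated starts has several windows.

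The targeted transcript was lower on every knockdown array. VAMP7 read 2487, 2617 and 2741 in control and 136.8, 175.4 and 148.6 in knockdown, in intensity units of the deposited arrays. Its log2 fold change was -3.71 (SE 0.11, adjusted p = 0.000362 in limma), and 5.87% of the control signal remained. Every fold change here was taken after adding 50 to the intensities, so that of a dim gene comes out too small, and a gene is called at a limma p under 0.05 after Benjamini-Hochberg adjustment over all 54613 probe sets. In bulk RNA, fewer cells with a transcript and less of it per cell cannot be told apart. Of 12 markers of pluripotent cells, 10 were measured and each had a mean intensity above 50. POU5F1 and TDGF1 had no probe set assigned to them alone. Of these 10, 7 had a fold change above 0, with a median of 0.04, and 0 had an unadjusted p under 0.05 in limma. Among them were SOX2 from 14659 to 21830 and the dimmer ZFP42 from 60.76 to 93.83. NANOG read 5151, 4314 and 5053 in control against 3629, 4283 and 3993 in knockdown, without overlap, as for 13.0% of all genes. Red cell, liver and leukocyte markers summed to at most 390.8 on any array. The muscle markers summed to 760.2 to 800 in control and 570.1 to 680.7 in knockdown, with CKM, muscle creatine kinase, at 9.45 or less on every array. Endothelial markers summed to 3524 to 3761 in control and 3983 to 4615 in knockdown. Neuron markers ran from 22411 to 25426 in control and fibroblast markers from 3345 to 3685, ranges that overlapped those of knockdown. Neither the muscle nor the endothelial sums overlapped between groups. The largest difference in means was that of TNNC1 for muscle (287.9 in control, 166.9 in knockdown) and VWF for endothelium (1176 and 1596). Above 0 lay 5 of 10 muscle and 5 of 7 endothelial markers. At an unadjusted p under 0.05 in limma, muscle had 1 lower, endothelium 2 higher and fibroblasts 1 of each. Lower at that limit were also 1 of 5 red cell and 2 of 8 liver markers. Higher were 1 of 10 neuron and 1 of 8 leukocyte markers. These were AHSP, TF, FGB, SYP and CSF1R, with mean intensities from 13.2 to 55.7. Over all genes, 3.28% were higher and 2.61% lower at that limit. The part of these markers in the values below was not tested.

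No gene of the list was called. Limma called 0 of the 32 genes and 0 of the 71 probe sets, against a background of 0.00506% of all genes and 0.00183% of all probe sets, in each case the single VAMP7 probe set. At an unadjusted p under 0.05 there were 0 of 32 genes on the highest probe set of each (background 5.89%) and 4 of 71 probe sets (5.63%, background 6.62%). Of these 4, 3 were higher (background 4.13%) and 1 was lower (background 2.48%), while the background for genes was 3.28% higher and 2.61% lower. The log2 fold changes of the 32 genes ran from -0.31 for ALDOC to 0.30 for SLC2A1 and PKLR, with a median of 0.02, against a median of 0.003 over all genes. Of the 32, 19 lay above 0 (59.4%, background 50.8%), and of the 71 probe sets 44 did (62.0%, background 53.8%). Without knockdown replicate 1 the count was 16 of 32, and the median was 0. The smallest adjusted p of any gene of the list was 0.801, for SLC2A1. The median standard error was 0.135 for these genes and 0.139 over all genes. Over genes at or above the median gene in intensity, where 25 of the 32 lay, it was 0.119.

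**Figure D1:**
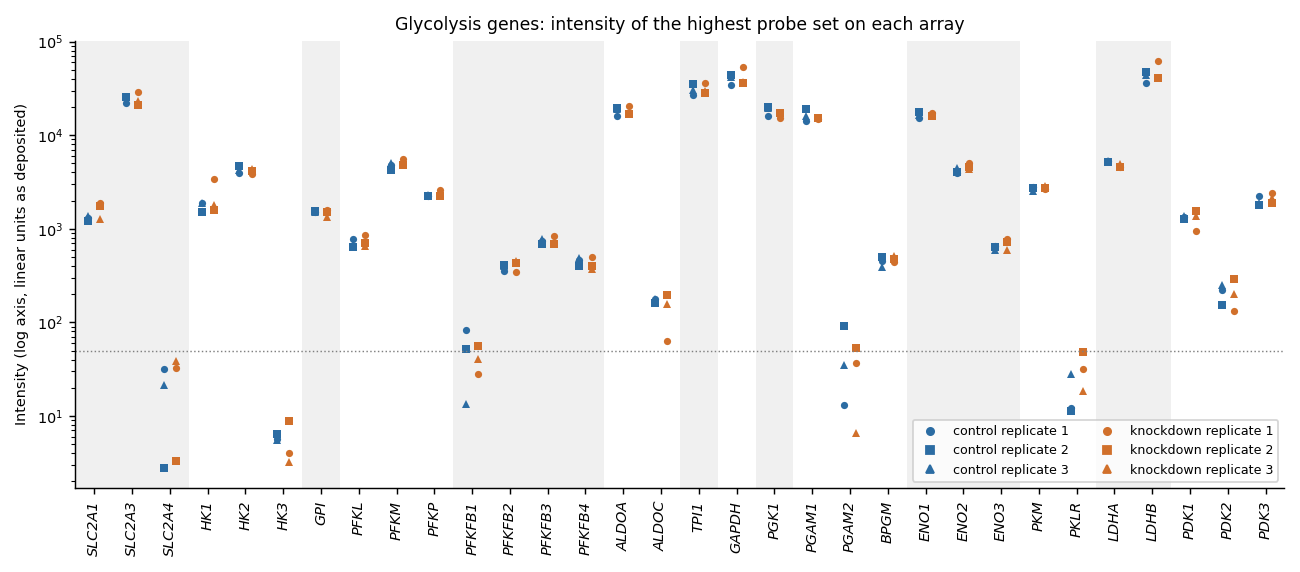
Intensity (log axis) of the highest probe set of each of the 32 measured genes, with blue points for the 3 control arrays and orange points for the 3 knockdown arrays, shapes for the replicate, shading for alternate steps and a dotted line at an intensity of 50. The groups overlapped for every gene but LDHA, and HK1 and ALDOC had knockdown replicate 1 apart from the other arrays.

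Transport of glucose into the cell was read from 3 facilitative transporters. SLC2A3 (GLUT3), the high-affinity form of neurons and early embryos, read 22306, 25653 and 25862 in control and 29223, 20964 and 23044 in knockdown, at or above the 99.4th percentile of its array throughout. Its groups overlapped fully (log2 fold change -0.02, 95% interval -0.38 to 0.33, adjusted p = 0.989 in limma). Its other probe sets gave -0.02 and -0.04, and those shared with the near-identical SLC2A14 gave 0.04 and 0.12. SLC2A1 (GLUT1), the widely expressed form, read 1296, 1218 and 1380 in control and 1872, 1752 and 1264 in knockdown. A pair of knockdown arrays lay above every control array and replicate 3 lay within the control range (log2 fold change 0.30, 95% interval -0.08 to 0.68). The SLC2A1 value was 0.19 without knockdown replicate 1 and 0.47 without knockdown replicate 3. SLC2A4 (GLUT4), the insulin-responsive form of muscle and fat, read 38.28 or less on every array.

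Intensities of different probe sets are not amounts of mRNA on one scale, since probes bind with different strength. The order of isoforms given here is therefore an order of readings, and the changes are those of each probe set between arrays. SLC2A3, ALDOA, TPI1, GAPDH, PGK1, PGAM1, ENO1 and LDHB were the 8 genes at or above the 99th percentile of every array. In contrast SLC2A4, HK3, PFKFB1, PGAM2 and PKLR had a mean intensity under 50, below the array medians of 58.85 to 67.54. Apart from HK3 these 5 are known as forms of muscle, liver or red cells, and HK3 is the form of leukocytes.

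Hexokinases phosphorylate glucose, which traps it in the cell. HK2, the inducible hexokinase of tumours and muscle, read 3936, 4636 and 4196 in control and 3858, 4139 and 4354 in knockdown, a log2 fold change of -0.05 (95% interval -0.31 to 0.22). Dimmer HK2 probe sets, of mean intensity 630.1 and 604.4, gave 0.21 and 0.12. HK1, the housekeeping hexokinase, read 1884, 1524 and 1867 in control and 3442, 1586 and 1774 in knockdown. One knockdown array was high and the others lay among the controls, so the HK1 value of 0.28 (SE 0.28) was -0.06 without knockdown replicate 1. HK3 read between 3.221 and 8.899. GPI, which turns glucose phosphate into fructose phosphate, read 1516, 1556 and 1505 in control and 1584, 1508 and 1326 in knockdown (log2 fold change -0.05, 95% interval -0.31 to 0.20).

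All 3 phosphofructokinase subunits, which carry the main control point of the pathway, were measured well above the median. PFKM, the muscle type, gave the highest reading, 4772, 4268 and 5013 in control and 5521, 4772 and 4851 in knockdown. Its groups overlapped (0.11, 95% interval -0.17 to 0.38), as did those of the platelet type PFKP, at 2261 ± 36.1 for control arrays against 2413 ± 193 after knockdown (SD, n = 3). For the liver type PFKL the probe sets differed. The highest read 768.4, 645.4 and 674.1 against 861, 701.9 and 646.7, with overlap and a log2 fold change of 0.07 (SE 0.14). A second, of mean intensity 486.3, read 433.7, 471.1 and 390.9 in control and 576.8, 521.7 and 523.8 in knockdown. There every knockdown array lay above every control array, with a value of 0.30 (SE 0.11, unadjusted p = 0.0304, adjusted p = 0.732 in limma).

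The bifunctional PFKFB enzymes make and remove the activator of phosphofructokinase. PFKFB3, the form with strong kinase activity, read 732.5, 687.8 and 769.7 in control and 829.3, 681.4 and 708.9 in knockdown (0.01, 95% interval -0.25 to 0.28). PFKFB2, the heart form, and PFKFB4 had values of 0.06 and -0.09, and their groups overlapped. PFKFB1, the form of liver and muscle, had a mean intensity under 50 on all 3 probe sets. Its highest read 83.64, 52.27 and 13.49 in control and 27.93, 56.12 and 40.11 in knockdown, a value of -0.07 (SE 0.27). A dimmer PFKFB1 probe set read 9.86, 7.22 and 6.4 against 14.1, 39.5 and 19, without overlap (0.34, unadjusted p = 0.0478, adjusted p = 0.753 in limma). These PFKFB1 values were of opposite sign.

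The later steps, from aldolase to enolase, held 6 of the 8 genes at the top of the arrays. ALDOA, the main aldolase of muscle and most cells, read 15929, 19307 and 18871 in control and 20549, 16978 and 16720 in knockdown, a log2 fold change of 0.00 (95% interval -0.31 to 0.32). A second bright ALDOA probe set gave 0.05. The dimmest, of mean intensity 1752, read 1976, 1998 and 1925 in control and 1424, 1566 and 1621 in knockdown, so every knockdown array was below every control array. Its value of -0.35 (SE 0.10, unadjusted p = 0.0102, adjusted p = 0.656 in limma) was the smallest p of the 71 probe sets. Which ALDOA transcripts each probe set reads is not given in the sources used here. ALDOC, the brain aldolase, read 178.1, 160.1 and 175.5 in control and 63.24, 195.4 and 155.9 in knockdown, with replicate 1 alone low. Its value was -0.31 (SE 0.27), and 0.02 without that array.

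TPI1, triosephosphate isomerase, read 26590, 35588 and 30751 in control and 36402, 27966 and 29820 in knockdown. GAPDH, the oxidising step and a common reference transcript, read 34661, 43919 and 42200 against 53069, 36283 and 36820. In both genes control replicate 1 was the lowest array and knockdown replicate 1 the highest, and the log2 fold changes were 0.02 (95% interval -0.35 to 0.39) and 0.05 (95% interval -0.38 to 0.48). The GAPDH control probe sets at the 3′ and 5′ ends of the transcript had a 3′ to 5′ ratio of 0.941 to 0.997 over the 6 arrays, while that of ACTB ran from 2.27 to 3.43. Neither ratio separated the groups.

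PGK1, the first step that makes ATP, read 16147, 20041 and 19556 in control and 15350, 17457 and 17127 in knockdown (log2 fold change -0.15, 95% interval -0.45 to 0.14). The PGK1 probe sets of mean intensity 2721 and 2652 gave -0.28 and -0.27, and the one at 6362 gave 0.00. The probe set at 2652 read 2999, 2867 and 2790 in control and 1842, 2782 and 2630 in knockdown. Its groups did not overlap, but replicate 1 lay far below the other knockdown arrays, and the value was -0.09 without it. PGAM1, the ubiquitous mutase, read 14100, 18858 and 16092 against 14824, 15113 and 15149, and the muscle mutase PGAM2 read 90.86 or less throughout. BPGM, the mutase that makes the oxygen-release regulator of red cells, read 445 ± 51.5 and 477 ± 35.6 (SD, n = 3).

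**Figure D2:**
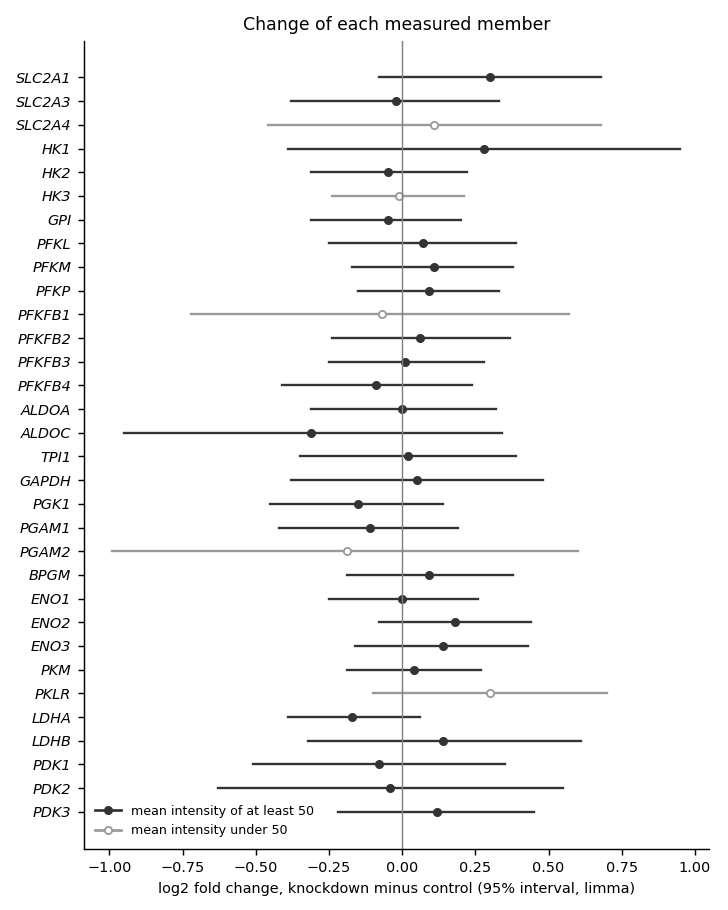
Log2 fold change of each measured gene on its highest probe set, knockdown minus control, with the 95% interval from limma; open grey points are genes with a mean intensity under 50. Every interval crosses 0, and those of HK1, ALDOC, PGAM2, PFKFB1, SLC2A4 and PDK2 are wide.

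Among the enolases, ENO1, the form of most tissues, read 15081, 17716 and 16536 in control and 17360, 15877 and 16060 in knockdown, a log2 fold change of 0.00 (95% interval -0.25 to 0.26). The ENO1 probe sets of mean intensity 10880 and 140.7 gave 0.16 each, and the one at 5.16 gave -0.02. ENO2, the neuronal enolase, read 3916, 4007 and 4440 against 5068, 4535 and 4392. A pair of knockdown arrays lay above the controls and replicate 3 just below the highest control (0.18, 95% interval -0.08 to 0.44, adjusted p = 0.826 in limma). ENO3, the muscle enolase, read 626 ± 32.8 and 696 ± 93.4 (SD, n = 3). PKM, which makes pyruvate, read 2763, 2708 and 2536 in control and 2629, 2735 and 2855 in knockdown (0.04, 95% interval -0.19 to 0.27). A dimmer PKM probe set, of mean intensity 184.8, read 188.8, 127.7 and 152.3 against 224.6, 203 and 212.4. On it the groups did not overlap (0.36, SE 0.13, unadjusted p = 0.0292, adjusted p = 0.728 in limma). The 3′ arrays were not used here to tell the PKM splice forms apart. PKLR, the liver and red cell kinase, read 48.5 or less.

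At the end of the pathway, LDHB, the heart-type subunit, gave one of the brightest readings of the array, 36419, 47625 and 43876 in control and 61899, 40695 and 40825 in knockdown. LDHB overlapped between groups (0.14, 95% interval -0.32 to 0.61) and stood at -0.06 without knockdown replicate 1. LDHA, the muscle-type subunit, read 5307, 5193 and 5326 in control and 4619, 4517 and 4938 in knockdown. Every LDHA knockdown array was below every control array, but the difference was small (log2 fold change -0.17, SE 0.09, 95% interval -0.39 to 0.06, adjusted p = 0.81 in limma). LDHA was the 1 gene of 32 without overlap (3.12%), where 13.0% of all genes did not overlap, 6.29% with knockdown lower and 6.68% with it higher. Over probe sets the counts were 3 of 71 higher and 3 of 71 lower, against 7.28% and 5.15% of all probe sets (12.4% together). With each array left out in turn, the LDHA value ran from -0.21 to -0.14.

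Pyruvate dehydrogenase kinases switch off the entry of pyruvate into mitochondria. PDK3 read 2237, 1780 and 1878 in control and 2429, 1874 and 2106 in knockdown (0.12, 95% interval -0.22 to 0.45). Its 4 other probe sets ran from -0.36 to 0.30. PDK1, a hypoxia-induced form, read 1342, 1261 and 1360 against 935.4, 1536 and 1356, and PDK2 read 222.7, 155.1 and 251.5 against 132.6, 288.9 and 202.4. In both, knockdown replicate 1 was the lowest array and knockdown replicate 2 the highest. Their values were -0.08 and -0.04, and 0.12 and 0.19 without replicate 1.

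**Figure D3:**
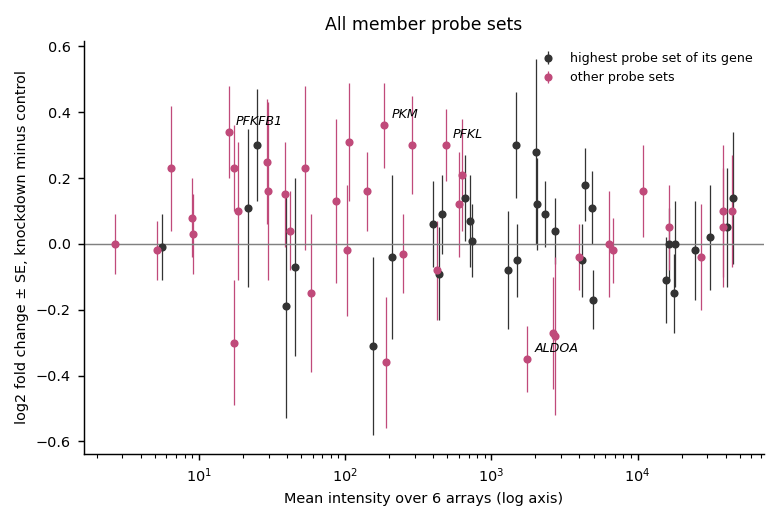
Log2 fold change with its standard error for all 71 probe sets of the list against mean intensity over the 6 arrays (log axis), dark for the highest probe set of a gene and pink for the others. The 4 named probe sets had an unadjusted p under 0.05, none of them the highest of its gene, and 20 genes had more than 1 probe set.

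Whether the balance of isoforms within a step moved was read as a log2 ratio on each array, of each isoform to the one with the highest reading in its step. There were 18 such ratios over 10 steps, compared by a two-sided exact permutation test, where 3 arrays against 3 cannot give a p under 0.1. One ratio reached that floor. ENO2 to ENO1 was -1.93, -2.13 and -1.89 in control and -1.77, -1.80 and -1.86 in knockdown, so each knockdown array was above each control array. The difference was 0.18 (SE 0.08, exact p = 0.1, adjusted over the 18 ratios p = 0.9), and it ran from 0.10 without control replicate 2 to 0.22 without control replicate 3. It was read on the highest ENO1 probe set alone. The second brightest ENO1 probe set, of mean intensity 10880, had a log2 fold change of 0.16, against 0.18 for ENO2. A ratio to that probe set was not taken. After quantile normalization ENO2 to ENO1 overlapped (0.17, exact p = 0.2), and BPGM to PGAM1 (0.14) and LDHA to LDHB (-0.24) did not.

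LDHA to LDHB was -2.77, -3.18 and -3.03 in control and -3.73, -3.16 and -3.03 in knockdown. Replicate 1 alone was apart, and the difference of -0.31 (SE 0.25, exact p = 0.4) was -0.10 without it. SLC2A1 to SLC2A3 was higher by 0.32 (SE 0.19, exact p = 0.2), with a pair of knockdown arrays above the controls. That difference was 0.16 without knockdown replicate 2 and 0.46 without knockdown replicate 3. HK1 to HK2 differed by 0.32 (SE 0.42) and by -0.06 without knockdown replicate 1, and ALDOC to ALDOA by -0.31 (SE 0.45) and by 0.12 without it. The phosphofructokinase ratios PFKP to PFKM and PFKL to PFKM differed by -0.02 (SE 0.06) and -0.04 (SE 0.09). The isoform with the highest reading at each step was the same in both groups by mean intensity, SLC2A3, HK2, PFKM, PFKFB3, ALDOA, PGAM1, ENO1, PKM, LDHB and PDK3.

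**Figure D4:**
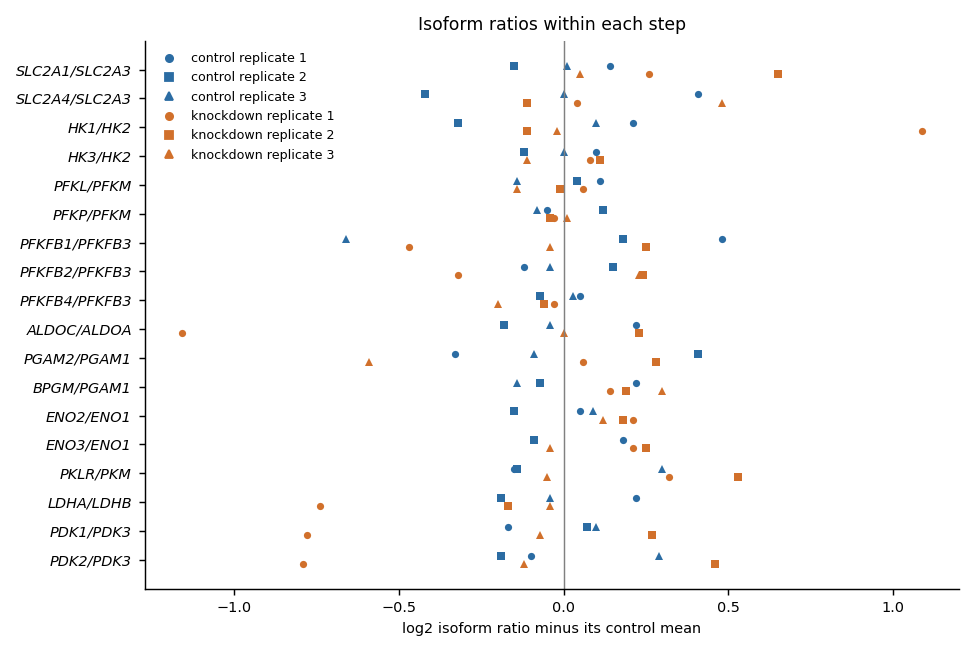
Log2 ratio of each isoform to the highest isoform of its step, on each array, minus the mean of the 3 control arrays, blue for control, orange for knockdown and shapes for the replicate. Control and knockdown points separate for ENO2/ENO1 alone, and knockdown replicate 1 lies far from the rest for HK1/HK2, ALDOC/ALDOA, LDHA/LDHB, PDK1/PDK3 and PDK2/PDK3.

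One array stood apart for several of these genes. The level of each gene on an array was set against the median of the other 5, a measure added after the values had been seen. On knockdown replicate 1, 7 of the 27 genes with a mean intensity of at least 50 lay more than 0.5 on the log2 scale from the others. They were HK1 (0.94), LDHB (0.60), GAPDH (0.53), SLC2A1 (0.51), PDK1 (-0.51), PDK2 (-0.58) and ALDOC (-0.99). On the other 5 arrays the count was 0 of 27. Over all 13304 genes of that brightness the share was 7.97% on knockdown replicate 1 and 2.77% to 3.65% on the others. That array held the highest value of 16 of the 27 genes (59.3%) and the lowest of 6 (22.2%), against 28.6% and 23.2% of all genes of that brightness.

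**Figure D5:**
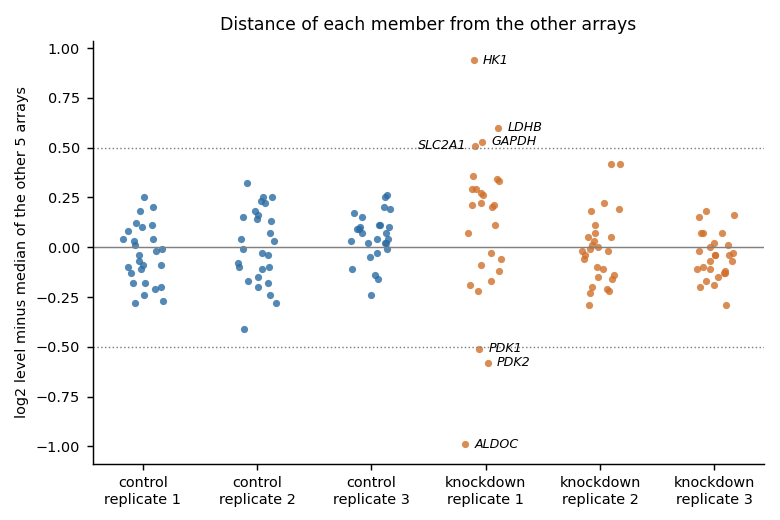
Log2 level of each of the 27 genes with a mean intensity of at least 50 on an array, minus its median over the other 5 arrays, in blue for control and orange for knockdown, with dotted lines at 0.5 and -0.5 and random sideways scatter. The 7 named genes beyond the lines are all on knockdown replicate 1.

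The median of the 8 genes at the top of the arrays differed from array to array within each group. Their median distance from the mean over arrays was -0.16 on control replicate 1, 0.11 and 0.05 on the other controls, 0.21 on knockdown replicate 1, and -0.11 and -0.07 on the other knockdown arrays. The 8 did not all move alike: on knockdown replicate 1, measured against the other 5 arrays, LDHB stood at 0.60 and GAPDH at 0.53 but PGK1 at -0.19 and PGAM1 at -0.03. For the other 24 genes the median distance ran from -0.05 to 0.11. Quantile normalization, which gives every array the same distribution, lowered the median standard error of the 8 from 0.14 to 0.09, and their log2 fold changes then ran from -0.12 to 0.09. That step draws the top of every array together, where these 8 were chosen, so the lower error is not a measure of better precision.

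The surrounding pathways were counted from lists drawn up with the glycolysis list, and no gene of them was called in limma. Over all genes, 50.8% lay above 0, 5.89% had an unadjusted p under 0.05 (3.28% higher, 2.61% lower) and 13.0% did not overlap between groups. These shares are the background for what follows. Of 16 measured further isoforms of the same steps, such as the testis forms PGK2, GAPDHS and LDHC, 8 lay above 0 and 9 had a mean intensity under 50. At an unadjusted p under 0.05 stood LDHAL6B, a lactate dehydrogenase of testis (0.52), and HKDC1, a hexokinase homologue (-0.40), with mean intensities of 14.8 and 17.1. In the list of pyruvate entry to mitochondria, 5 of 10 were above 0. At an unadjusted p under 0.05, 2 of the 10 were higher and 1 was lower. MPC2, a subunit of the mitochondrial pyruvate carrier, read 2695, 2903 and 2838 in control and 2209, 2534 and 2367 in knockdown, without overlap (-0.24, adjusted p = 0.753 in limma). PDPR, a regulator of pyruvate dehydrogenase phosphatase, read 1795, 1632 and 1771 against 2160, 2023 and 2122, also without overlap (0.27, adjusted p = 0.726 in limma). PDHA2, the testis form of a pyruvate dehydrogenase subunit, was dim at 22.1 and did not overlap either (0.30). MPC2, PDPR and PDHA2 were named for their unadjusted p. MPC1 was also without overlap (-0.24, unadjusted p = 0.15 in limma).

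Among 16 genes of gluconeogenesis and glycogen, 8 lay above 0 and 2 had an unadjusted p under 0.05, both lower, where 2.61% of all genes were. PYGL, the liver glycogen phosphorylase, read 1485, 1530 and 1533 in control and 1135, 1336 and 1289 in knockdown (-0.27, adjusted p = 0.744 in limma). GBE1, the glycogen branching enzyme, read 1520, 1593 and 1663 against 1205, 1426 and 1326 (-0.26, adjusted p = 0.746 in limma). Both were named for their unadjusted p. For both, all knockdown arrays were below all controls, as for 6.29% of all genes. G6PC3 did not overlap in the other direction, with 2794, 2692 and 2795 in control and 3304, 2968 and 2868 in knockdown. Its value was 0.14 (unadjusted p = 0.2185 in limma), and 6.68% of all genes were higher without overlap. The pentose phosphate list had 5 of 8 above 0, and the serine and hexosamine branches 4 of 8, with 0 at an unadjusted p under 0.05 in either. Of 20 regulators 14 lay above 0, with MLXIPL, a glucose-sensing transcription factor of mean intensity 48.3, alone at an unadjusted p under 0.05 (0.53). HIF1A, the oxygen-sensed subunit of HIF, stood at 15409 ± 1314 for control and 15553 ± 1037 for knockdown (SD, n = 3). Of 16 hypoxia targets outside glycolysis, 7 lay above 0, the median was -0.01, and 0 had an unadjusted p under 0.05.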

How the data were processed

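The data are 1 table of intensities for 6 arrays, 3 control and 3 knockdown, on a linear scale as the authors deposited them. Each array had a trimmed mean of 500.07 (2% left out at each end), so arrays had been scaled to one target. The submitters' processing notes name RMA, which does not describe linear values, and how background was removed is not given there or in the labels. The arrays were not all normalized to one distribution, so array-wide shifts of bright probe sets stay in the values. Precision is limited by the number of arrays, and no pair held identical values.

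Of 54675 probe sets, 62 array controls were left out of the fit. Of the rest, 41091 named 1 gene, 1801 several and 11721 none. Symbols were updated by gene identifier to RefSeq GRCh38.p14 (99.87% matched). Intensities were put on the log2 scale after an offset of 50 and a linear model with group as its only term was fitted (R 4.3.3, limma 3.58.1, moderated by eBayes) over 54613 probe sets. The probe set of highest mean stood for its gene. Isoform ratios were compared by exact permutation over arrays. Genes given on every array were the highest of each step, those with a probe set at an unadjusted p under 0.05, those whose groups did not overlap and isoform ratios without overlap; HK1, ALDOC, SLC2A1, PDK1, PDK2, the second PGK1 probe set and the genes of other lists were added after their values were seen or by their unadjusted p. The genes, lists and rules were chosen with earlier results of these data known. The code was tested on simulated arrays. Alternatives covered the offset, normalization, a dim filter, 1 probe set per gene, the mean of probe sets, eBayes options, the replicate number as a block and each array left out.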

Additional observations from a re-analysis of the deposited data

How the results depend on the processing

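VAMP7 kept its direction and its call under every alternative, with a log2 fold change from -4.01 to -3.42, and 0 of the 71 probe sets of the list were called under any. Of the 32 genes, none was called in any setting, 12 kept the sign of their fold change before rounding in all 16 alternatives that applied, and 20 changed it at least once; the cause was not tested. The sign changed with the mean of the probe sets of a gene for HK2 (0.09), PFKFB1 (0.17), ALDOA (-0.10) and TPI1 (-0.03), with median centring for PFKFB3 (-0.03), ALDOA (-0.04), TPI1 (-0.02), ENO1 (-0.04) and PKM (-0.01), with quantile normalization for PFKFB3 (0.00 after rounding), TPI1 (-0.02) and GAPDH (-0.01), and with an offset of 10 for the HK3 to HK2 ratio (-0.02). Isoform ratios without overlap numbered 2 after quantile normalization and 1 to 4 with an array left out, which leaves fewer arrays to overlap. With each array left out in turn, the fold change ran from -0.09 to 0.06 for ALDOA, -0.53 to 0.02 for ALDOC, -0.06 to 0.06 for ENO1, -0.13 to 0.14 for GAPDH, -0.11 to 0.02 for GPI, -0.06 to 0.49 for HK1, -0.10 to 0.02 for HK2, -0.06 to 0.01 for HK3, -0.06 to 0.25 for LDHB, -0.22 to 0.12 for PDK1, -0.26 to 0.19 for PDK2, -0.37 to 0.17 for PFKFB1, 0.00 to 0.17 for PFKFB2 (below 0 before rounding), -0.06 to 0.07 for PFKFB3, -0.04 to 0.15 for PFKL, -0.46 to 0.12 for PGAM2, -0.16 to 0.08 for SLC2A3, -0.06 to 0.34 for SLC2A4 and -0.09 to 0.13 for TPI1. The ratio differences ran from -0.58 to 0.12 for ALDOC to ALDOA, -0.06 to 0.54 for HK1 to HK2, -0.02 to 0.10 for HK3 to HK2, -0.42 to 0.10 for PDK1 to PDK3, -0.46 to 0.17 for PDK2 to PDK3, -0.42 to 0.15 for PFKFB1 to PFKFB3, -0.05 to 0.23 for PFKFB2 to PFKFB3, -0.11 to 0.02 for PFKL to PFKM, -0.06 to 0.04 for PFKP to PFKM, -0.26 to 0.17 for PGAM2 to PGAM1 and -0.07 to 0.34 for SLC2A4 to SLC2A3. Same-numbered arrays were not paired by the labels, and their deviations correlated at -0.00, 0.04 and -0.03. With the replicate number as a block, VAMP7 stood at -3.71 (adjusted p = 0.0295 in limma) and no call changed. Genes under an intensity of 50, PKLR, SLC2A4, HK3, PGAM2 and PFKFB1, cannot be followed closely at this signal, and 3 arrays a group limit every interval.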
